A study of Mus musculus with 12 samples.

Results

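Cortex that had lost Egfr, the gene of the epidermal growth factor receptor, was compared with control cortex in the caudal piece of the tissue of mice at postnatal day 5. The comparison takes every library labelled caudal, which is 6 of the 12 libraries of the series. The cKO group has 3 libraries (animals T3, T6 and T80, Nestin-EgfrF/F) and the control group 3 (T4, T8 and T70), each of 1 pup. The controls are heterozygous for the floxed allele (EgfrF/+) in the protocol and WT in the genotype label, and neither says whether they carry the recombinase. Nestin drives the recombinase in neural stem and progenitor cells and so in the neurons and macroglia they form, while microglia, blood vessels and meninges arise elsewhere and are outside its main reach. The tissue held cortex and hippocampal formation together. The other 6 libraries are the rostral pieces of the same animals.

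EGFR is a receptor tyrosine kinase of the ErbB family. It binds ligands such as TGF-alpha, HB-EGF, betacellulin and EGF, pairs with itself or with another ErbB receptor, and signals through RAS and ERK and through other routes. In the developing forebrain it is known as a receptor of progenitors that turn from making neurons to making astrocytes and oligodendrocytes, which in the mouse takes place around birth.

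Total counts ran from 43810241 to 82056738 per caudal library, and 20705 of 55357 listed genes had enough counts to be tested. Levels below are CPM, the count of a gene relative to the effective library size, and TPM where genes are compared with each other per exon length. The sex of the animals was read from sex-linked transcripts, and gave T4, T8 and T3 as female and T70, T6 and T80 as male. Among the caudal libraries, those of T3 and T6 stood further from the rest of their group, with a median absolute log2 deviation per gene of 0.196 and 0.223 against 0.134 for T80 and 0.0878 to 0.113 for the controls. On a scale over 929 genes that separated the control regions, with 0 for control rostral and 1 for control caudal, T3 lay at 0.503, T6 at 1.25 and T80 at 0.873. The rostral libraries of T3 and T80 lay at 0.922 and 0.695 on it, so region labels and region genes did not match well in these animals. In T3 the library labelled rostral lay closer to control caudal than the library labelled caudal did. Single region genes differed, in CPM scaled over 12 libraries. For Nr2f1, control rostral lay at 90.6 to 122 and control caudal at 154 to 160. Rostral and caudal T3 lay at 124 and 152, and T80 at 159 and 134. For Cr2, control rostral lay at 0.719 to 0.845 and control caudal at 3.98 to 5.67. Rostral and caudal T3 lay at 4.36 and 3.76, and T80 at 6.17 and 3.96. Whether the libraries of T3 or of T80 carry each other's label was not tested. Cortical projection neuron genes summed to 1164, 1242 and 1238 CPM in control T4, T8 and T70 and to 1480, 1360 and 1360 CPM in cKO T3, T6 and T80, every cKO library above control. Of these 7 genes, 3 had every cKO library above every control library and 1 every cKO library below. Over all genes tested the share was 11.3% each way, and 0 of the 7 passed the edgeR test described below. Pan-neuronal genes summed to 10070, 9857 and 9808 CPM in control and to 9715, 10490 and 9660 CPM in cKO, with overlap. In this whole tissue, fewer cells of a type and less RNA per cell cannot be told apart.

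Egfr itself was at 46.7, 40.5 and 41.4 CPM in control T4, T8 and T70 and at 6.01, 15.1 and 9.80 CPM in cKO T3, T6 and T80. Every cKO library lay below every control library, at 24.1% of the control mean, and T6 kept the most. The log2 fold change (cKO minus control) was -2.05 (SE 0.31), with an adjusted p of 0.102 in edgeR's quasi-likelihood test with Benjamini-Hochberg adjustment over all genes tested, n = 3 per group. This misses the threshold of 0.05, while DESeq2 gave an adjusted p of 1.47e-05. The counts span all exons, and the sources used here do not say which of them the floxed allele removes.

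Genes of astrocytes and of the oligodendrocyte lineage were among those that fell in caudal cortex, and a gene of activated microglia and a matrix enzyme rose. The edgeR test called 17 of 20705 genes (0.0821%), of which 3 rose (0.0145%) and 14 fell (0.0676%). Overlapping features made these 14 loci: 2 short features lie on Rn7s1, and Gm42793 lies inside Spp1 on the same strand. Bcan, Mlc1, Gpr37l1, Olig1, Bcas1, Pla2g7, Fgfbp3 and Apln fell, as did Wdfy1, Gbp11 and the 7SL RNA genes Rn7s1 and Rn7s2, and Spp1 and Has2 rose. The control and cKO libraries did not overlap for any of them, as for 22.6% of all genes. Sex was not balanced, since T3 was the only female in cKO and T70 the only male in control. With sex as a covariate 2 of the 17 still passed, and in 1 fit of all 12 libraries 1 did. DESeq2 called 467 of the same genes (2.26%), the 17 included, and limma voom with library quality weights called 0.884% higher and 0.918% lower, also with the 17. The edgeR calls depended on single libraries: 17 of 17 stayed without cKO T3 (99 called) and without cKO T6 (162 called), 4 stayed without control T70 (5 called), and 0 genes were called without control T4, control T8 or cKO T80, where edgeR still gave 2079, 1683 and 2836 genes at an unadjusted p under 0.05.

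**Figure D1:**
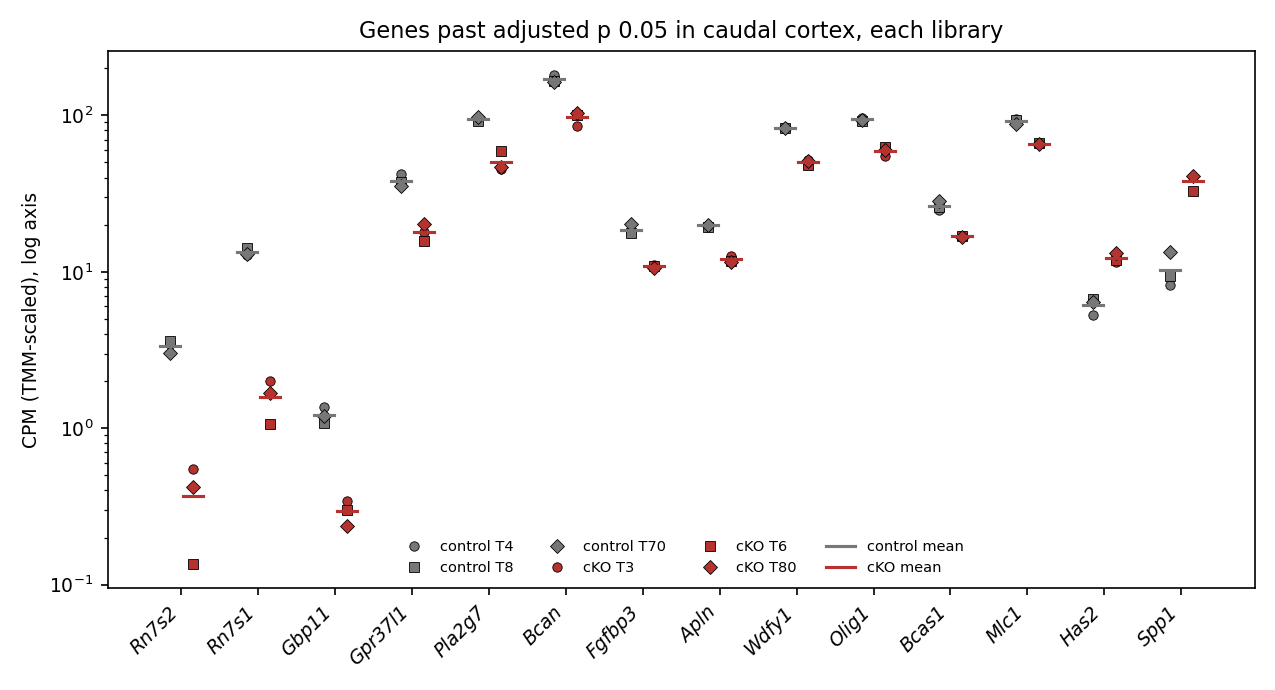
Level of each named gene past an adjusted p of 0.05 in the 6 caudal libraries, in CPM on a log axis. Points are libraries, grey for control and red for cKO, with 1 symbol shape per animal, and bars are group means. The groups are apart for all 14 genes, and only Has2 and Spp1 are higher in cKO.

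Bcan encodes brevican, a chondroitin sulfate proteoglycan of the brain's extracellular matrix made by astrocytes and oligodendrocyte precursors (chr3:87894838-87907537, minus strand, GRCm39). It was at 181, 166 and 162 CPM in control T4, T8 and T70 and at 85.9, 101 and 104 CPM in cKO T3, T6 and T80. All cKO libraries lay well under the lowest control, and the fall was -0.81 on the log2 scale (SE 0.09, edgeR adjusted p = 0.0283). Gpr37l1, a G protein-coupled receptor of astrocytes and other glia (chr1:135087972-135095419, minus strand), went from 42.5, 37.4 and 35.1 CPM to 18.0, 15.8 and 20.3 CPM. That is 47.1% of the control mean, a log2 fold change of -1.09 (SE 0.11, edgeR adjusted p = 0.0283), with T6 lowest. Mlc1, a membrane protein of astrocyte end-feet that is mutated in a leukoencephalopathy (chr15:88840087-88863210, minus strand), was at 94.6, 93.7 and 88.4 CPM in control and 66.0, 66.5 and 65.6 CPM in cKO. Its cKO libraries were nearly equal, and it fell by 0.48 (SE 0.06, edgeR adjusted p = 0.0426).

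Spp1 encodes osteopontin, a secreted phosphoprotein that activated microglia make in the young brain (chr5:104582984-104588916, plus strand). It rose from 8.18, 9.33 and 13.3 CPM in control T4, T8 and T70 to 40.5, 32.6 and 41.0 CPM in cKO T3, T6 and T80. The lowest cKO library was above the highest control, and the log2 fold change was 1.89 (SE 0.19, edgeR adjusted p = 0.0283). Of the 17 called features, 7 had a promoter sequence by symbol. The 250 bases before the start site are shown for the gene that rose with the highest level (the first of its 2 windows) and for 2 glial genes that fell, from RefSeq on GRCm38.p6, whose coordinates differ from the GRCm39 positions above. Capitals mark matches on either strand to 6 motifs, none of which overlap in these windows. The letters searched were TATAAA for the TATA box and CCAAT for the box of that name. For the GC box they were GGGCGG, and for the AP-1 site TGANTCA. The ETS site was searched as CCGGAAG and the SOX site as ACAAAG.
Spp1 promoter, chr5:104434861-104435110 (+): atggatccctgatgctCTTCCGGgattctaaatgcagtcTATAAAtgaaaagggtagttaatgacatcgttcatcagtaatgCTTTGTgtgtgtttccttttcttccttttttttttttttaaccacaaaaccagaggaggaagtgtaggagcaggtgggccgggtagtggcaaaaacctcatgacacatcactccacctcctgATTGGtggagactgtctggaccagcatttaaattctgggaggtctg
Gpr37l1 promoter, chr1:135167682-135167931 (-): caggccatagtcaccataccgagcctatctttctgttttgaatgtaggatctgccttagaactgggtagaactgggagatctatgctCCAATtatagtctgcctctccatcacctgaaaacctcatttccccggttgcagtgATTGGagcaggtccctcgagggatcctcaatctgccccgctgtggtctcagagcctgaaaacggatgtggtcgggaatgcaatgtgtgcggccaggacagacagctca
Bcan promoter, chr3:88000357-88000606 (-): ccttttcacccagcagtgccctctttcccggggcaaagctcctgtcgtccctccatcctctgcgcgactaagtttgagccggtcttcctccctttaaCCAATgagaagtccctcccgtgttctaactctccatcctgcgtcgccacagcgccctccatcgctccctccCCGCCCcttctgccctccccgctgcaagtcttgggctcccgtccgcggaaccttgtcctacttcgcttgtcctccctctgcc
The Spp1 window held a TATA box, a CCAAT box, an ETS site and a SOX site, the last 3 on the reverse strand. The Gpr37l1 window held the CCAAT box on both strands and no other match, and the Bcan window a CCAAT box and a GC box. Among 32851 promoter windows of this length, 12.4% held the TATA box, 33.8% the CCAAT box, 32.7% the GC box, 6.91% the ETS site and 16.5% the SOX site. These are matches of letters and not measured binding.

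Astrocyte genes lay lower in cKO across channels, transporters and enzymes, though 1 of them, Mlc1, passed in edgeR. The members of these and all later lists were chosen with earlier results of these data known. Some lists hold called genes, so their shares are no independent support. In the list of channels, junctions and water transport all 10 members tested had a log2 fold change below 0 (median -0.29), and 3 had groups that did not overlap, all lower. Of the 10 transporters 9 were below 0 (median -0.31) with 6 lower without overlap, and of the 20 enzymes and identity markers 17 were below 0 (median -0.34) with 11 lower without overlap. Over all genes tested the median was 0.00446, 49.1% were below 0, and 11.3% were lower without overlap. DESeq2 called 2, 1 and 8 members of the 3 lists, all lower, where it called 1.13% of all genes lower. The medians were -0.12, -0.25 and -0.28 without T3, whose caudal library had the lowest mean log2 ratio to control in all 3 lists, and -0.48, -0.41 and -0.45 without T6.

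Slc7a10, which carries neutral amino acids such as D-serine, was at 17.0, 13.9 and 16.0 CPM in control and at 8.003, 9.42 and 7.74 CPM in cKO. Its groups were far apart, with a log2 fold change of -0.90 (SE 0.12), and its edgeR adjusted p of 0.0593 just missed the threshold. Fgfr3, a fibroblast growth factor receptor of astrocytes and their progenitors, was at 58.6, 52.5 and 47.7 against 25.8, 33.1 and 30.6 CPM (-0.83, SE 0.11, edgeR adjusted p = 0.0606). Aldh1l1, a folate enzyme that marks astrocytes, was at 88.2, 77.9 and 76.7 against 42.1, 51.1 and 53.1 CPM (-0.73, SE 0.10, edgeR adjusted p = 0.0606). In both genes the 6 libraries fell into separate ranges by genotype. The calcium-binding protein S100b was at 5.47, 4.998 and 4.94 CPM in cKO against 8.38 to 10.5 CPM in control (-0.85, SE 0.12). The neurotensin receptor Ntsr2 was at 3.68 to 4.14 against 6.23 to 7.03 CPM (-0.77, SE 0.12). None of these passed in edgeR, and each passed in DESeq2, the highest adjusted p among them being 6.39e-06 for Ntsr2.

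The size of the difference varied between genes of astrocytes and their progenitors. The water channel Aqp4 was at 246, 220 and 217 CPM in control and at 119, 190 and 150 CPM in cKO (-0.57, SE 0.16, edgeR adjusted p = 0.221, DESeq2 adjusted p = 0.0185), the smallest difference being that of T6. Kcnj10, the inward rectifier potassium channel that takes up extracellular potassium, was at 82.2, 80.3 and 76.3 against 53.6, 81.9 and 62.4 CPM. Its groups overlapped because T6 lay among the controls, and its log2 fold change was -0.27 (SE 0.14, edgeR adjusted p = 0.418). Ednrb, the endothelin receptor B of glia, was lower in each cKO library, at 82.9, 118 and 90.3 against 210, 174 and 173 CPM (-0.93, SE 0.14, edgeR adjusted p = 0.0756). Fabp7, the fatty acid-binding protein of radial glia and immature astrocytes, was at 433, 499 and 493 against 661, 707 and 643 CPM (-0.50, SE 0.08, edgeR adjusted p = 0.0756). Hes5, a Notch target of glial progenitors, was at 8.78 to 8.91 CPM in cKO against 12.4 to 12.96 CPM in control (-0.51, SE 0.09, edgeR adjusted p = 0.0906).

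In the oligodendrocyte lineage Olig1 and Bcas1 fell, and most transcription factors and myelin genes tested had values below 0. Olig1, a transcription factor of the lineage (chr16:91066660-91068821, plus strand), was at 96.5, 91.8 and 93.9 CPM in control and at 54.9, 62.8 and 59.6 CPM in cKO. The controls were within a few CPM of each other and every cKO library lay below them, a fall of -0.67 (SE 0.07, edgeR adjusted p = 0.0283). Bcas1, which marks newly formed oligodendrocytes (chr2:170188911-170269765, minus strand), was at 24.9, 26.1 and 28.3 CPM in control and at 16.9, 17.0 and 16.6 CPM in cKO. It fell to 63.7% of control with almost the same level in each cKO library (-0.65, SE 0.08, edgeR adjusted p = 0.0379). Of 11 transcription factors tested 8 were below 0 (median -0.35) and 6 were lower without overlap, and of 13 myelin genes 11 were below 0 (median -0.44) with 7 lower and 1 higher without overlap. Of 15 precursor markers 8 were below 0 (median -0.04), with 5 lower without overlap. Of 12 genes of newly formed oligodendrocytes 7 were below 0 and 5 above (median -0.14, and -0.02 without T3), with 4 lower and 1 higher without overlap, and DESeq2 called 3 lower and 1 higher, the last being Cemip2. Their sum was 863, 837 and 845 CPM in control T4, T8 and T70 and 800, 878 and 830 CPM in cKO T3, T6 and T80, with overlap. Over all genes tested 49.1% were below 0, 11.3% were lower and 11.3% higher without overlap, and DESeq2 called 1.13% each way. The difference between the oligodendrocyte lists was not tested.

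Myrf, the transcription factor that switches on myelin genes, was at 3.85, 4.01 and 3.53 CPM in control and at 2.38, 2.36 and 2.19 CPM in cKO (-0.72, SE 0.13, edgeR adjusted p = 0.108). Sox8 was at 21.1 to 24.3 CPM in cKO against 31.8 to 33.0 CPM in control (-0.52, SE 0.08, edgeR adjusted p = 0.0700), and Olig2 at 20.1 to 26.2 against 29.7 to 34.0 CPM (-0.48, SE 0.11, edgeR adjusted p = 0.167). All 3 had groups apart and passed in DESeq2 but not in edgeR. Enpp6, a phosphodiesterase of newly formed oligodendrocytes, was at 4.85, 5.04 and 5.30 against 1.99, 2.46 and 2.98 CPM (-1.02, SE 0.16, edgeR adjusted p = 0.0780). The groups of Enpp6 were apart, with T3 lowest. Mal, a proteolipid of myelin-forming cells, went the other way in value, at 3.23 to 3.36 CPM in cKO against 2.22 to 2.97 CPM in control (0.31, SE 0.15, edgeR adjusted p = 0.390). Sox10, a transcription factor kept through the lineage, was at -0.35 (SE 0.10), and Gpr17, a receptor of committed precursors, at -0.49 (SE 0.10), and neither passed in edgeR.

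**Figure D2:**
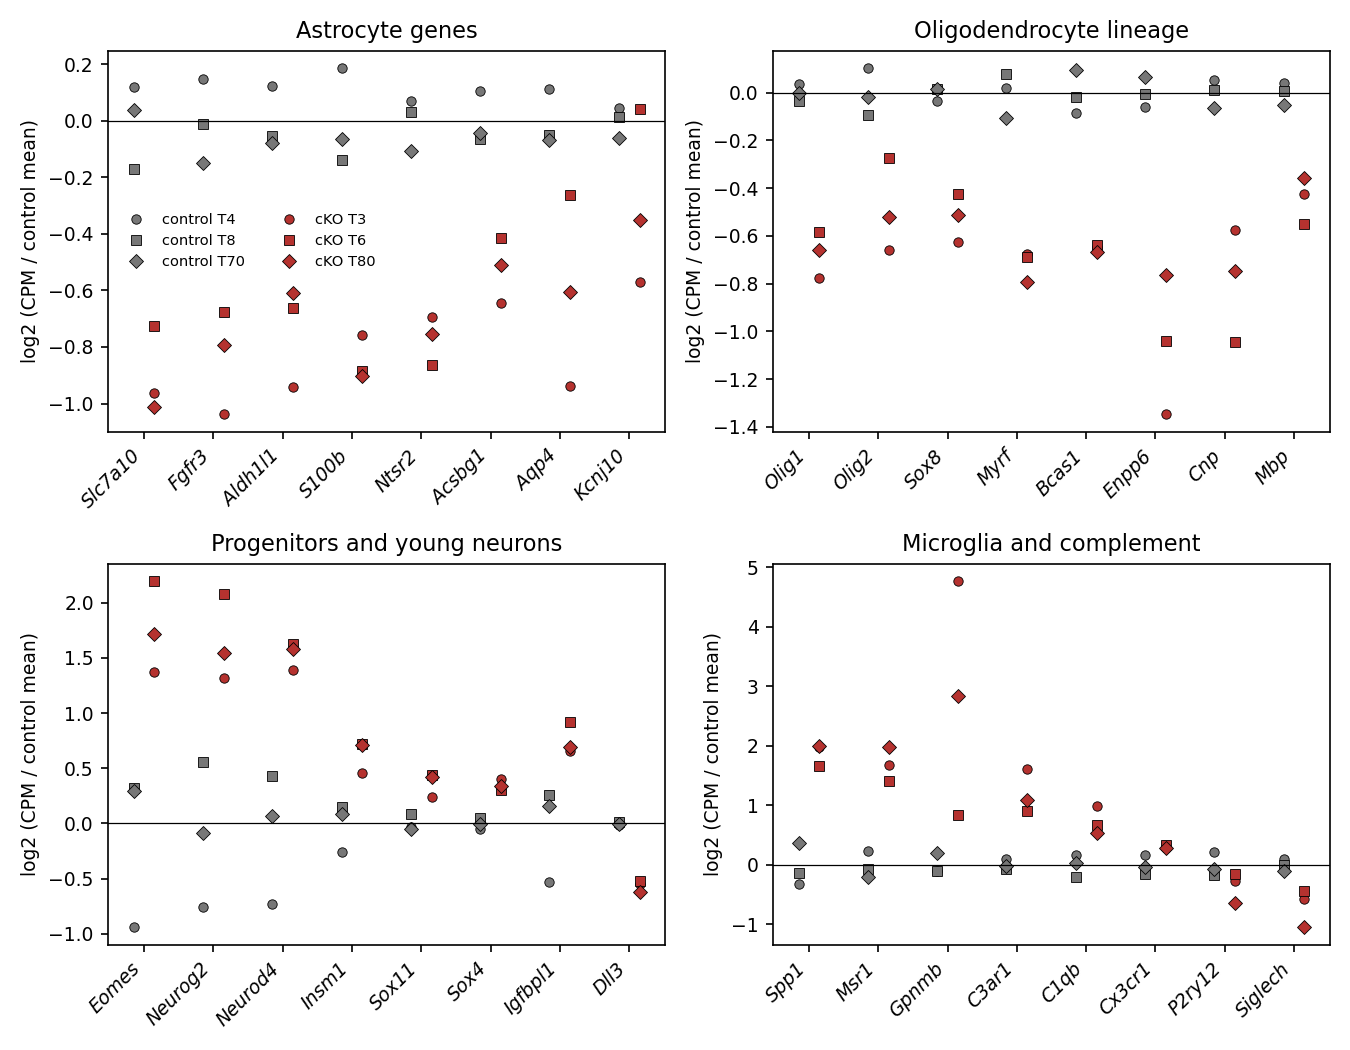
log2 ratio of CPM to the control mean in each caudal library for members of 4 kinds of list, grey for control and red for cKO, with 1 symbol shape per animal and a line at the control mean. Olig1, Bcas1, S100b and Spp1 show narrow cKO groups away from control, while in Kcnj10 the library of T6 lies with the controls and in Gpnmb the 3 cKO libraries spread widely.

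Among growth factor genes, Fgfbp3 and Apln fell. Fgfbp3 encodes a secreted protein that binds fibroblast growth factors (chr19:36894950-36897015, minus strand), and was at 18.1, 17.7 and 20.1 CPM in control and at 11.04, 10.9 and 10.6 CPM in cKO. The cKO levels agree within 1 CPM, and the fall was -0.78 (SE 0.09, edgeR adjusted p = 0.0283). Apln encodes apelin, a peptide that acts on the apelin receptor of blood vessels and other cells (chrX:47114023-47123730, minus strand). It was at 20.01, 19.4 and 19.9 CPM in control and at 12.7, 11.8 and 11.5 CPM in cKO (-0.72, SE 0.08, edgeR adjusted p = 0.0283). Of 14 fibroblast growth factor genes tested, 7 were below 0, close to the 49.1% over all genes, and 5 were lower without overlap, against 11.3% over all genes. Fgf1, an intracellular growth factor released without a signal peptide, was at 17.8, 15.5 and 17.1 against 7.07, 10.1 and 9.76 CPM (-0.90, SE 0.14, edgeR adjusted p = 0.0780). Fgfbp1, another carrier protein of the family, was at 3.92, 3.74 and 4.67 against 0.778, 1.72 and 1.67 CPM (-1.54, SE 0.27, edgeR adjusted p = 0.104).

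The called matrix genes Bcan and Has2 went in opposite directions. Has2 makes hyaluronan, the polymer to which brevican and its relatives bind (chr15:56529023-56557935, minus strand). It rose from 5.33, 6.73 and 6.41 CPM in control to 11.6, 11.9 and 13.2 CPM in cKO, to 198.6% of the control mean (0.99, SE 0.12, edgeR adjusted p = 0.0393). All 3 cKO libraries were above all controls, the reverse of Bcan. Of 17 proteoglycan and hyaluronan genes 9 were below 0 (median -0.13), with 4 lower and 2 higher without overlap. Over all genes tested 49.1% were below 0, and 11.3% were lower and 11.3% higher without overlap. Acan, the aggrecan of perineuronal nets, was at 6.93, 17.5 and 8.40 CPM in cKO against 5.40 to 5.91 CPM in control (0.96, SE 0.33, edgeR adjusted p = 0.289), with T6 far above the rest.

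Genes of lipid supply lay lower in small steps. Pla2g7, a secreted phospholipase that breaks down platelet-activating factor and oxidised phospholipids (chr17:43878989-43923092, plus strand), was at 95.8, 91.4 and 97.4 CPM in control and at 45.3, 58.7 and 46.7 CPM in cKO. It fell to 53.0% of control (-0.92, SE 0.10, edgeR adjusted p = 0.0283), least in T6. Scd1, a desaturase that makes monounsaturated fatty acids, was at 134, 118 and 125 against 77.7, 91.8 and 83.6 CPM (-0.57, SE 0.08, edgeR adjusted p = 0.0673). Its relative Scd2 was at 1364 to 1509 CPM in cKO against 1725 to 1883 CPM in control (-0.30, SE 0.07, edgeR adjusted p = 0.176). Over all genes tested 49.1% were below 0 and 11.3% were lower without overlap. Of 16 genes of fatty acid and lipid handling 13 were below 0 and 7 were lower without overlap. All 22 genes of cholesterol synthesis tested were below 0, with a median of -0.20 (-0.13 without T6), and 9 were lower without overlap. The mean of that list against control was lowest in T6 at -0.459, with T80 at -0.238 and T3 at -0.0426, and the share of mitochondrial counts was 2.68%, 3.98% and 2.36% in cKO T3, T6 and T80 against 2.31%, 2.19% and 1.85% in control T4, T8 and T70. Every cKO library lay above control in that share. The part of RNA quality in the cholesterol values, or in those of the other lists, was not tested. Msmo1, a sterol oxidase of the pathway, was at 106, 81.6 and 94.9 CPM in cKO against 116 to 127 CPM in control (-0.36, SE 0.10, edgeR adjusted p = 0.206).

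**Figure D3:**
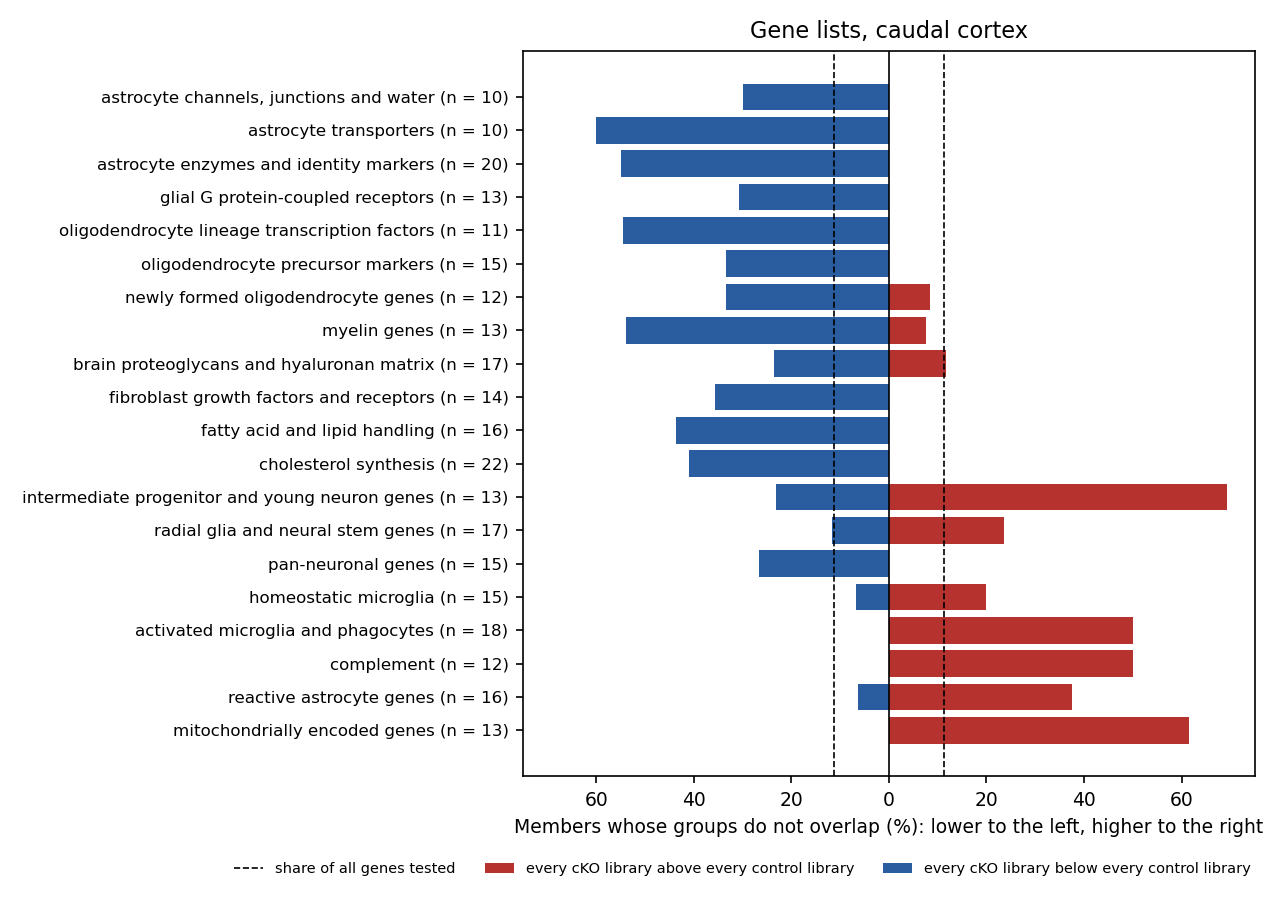
Share of the tested members of each list whose groups do not overlap, to the left where every cKO library is below every control library and to the right where it is above, with dashed lines at the share over all genes tested, 11.3% on both sides. Lists of astrocytes, oligodendrocytes and lipids reach to the left, and lists of intermediate progenitors, activated microglia, complement and mitochondrial genes to the right. The members were chosen with earlier results of these data known.

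Genes of neurogenic progenitors lay higher in cKO, though 0 of 13 members of the list of intermediate progenitors and young neurons passed in edgeR. In that list 9 members were higher and 3 lower without overlap (median 0.37), where 11.3% of all genes were each way. At an unadjusted p under 0.05, 9 were higher and 2 lower (7.65% and 6.86% of all genes). DESeq2 called 7, all higher, where it called 1.13% of all genes higher. Eomes, the transcription factor that defines intermediate progenitors of glutamatergic neurons, was at 1.96, 4.70 and 4.62 CPM in control and at 9.72, 17.3 and 12.4 CPM in cKO. Each cKO library was far above the highest control (1.81, SE 0.37, edgeR adjusted p = 0.159, DESeq2 adjusted p = 0.00656), and control T4 was the lowest of all. Neurog2, the proneural factor upstream of Eomes, was at 0.527, 1.30 and 0.835 against 2.22, 3.75 and 2.58 CPM (1.70, SE 0.34, edgeR adjusted p = 0.134). Neurod4 was at 0.478, 1.07 and 0.835 against 2.08, 2.46 and 2.37 CPM (1.55, SE 0.28, edgeR adjusted p = 0.104). These 3 genes had low levels with wide control groups. Sox4 and Sox11, transcription factors of young neurons, had narrow groups instead, Sox4 at 344 to 370 CPM in cKO against 270 to 290 CPM (0.35, SE 0.06, edgeR adjusted p = 0.104) and Sox11 at 0.37 on the log2 scale (SE 0.08, edgeR adjusted p = 0.139).

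Members of the same list also went lower. Dll3, a Notch ligand of new neurons, was at 1.80 to 1.93 CPM in cKO against 2.74 to 2.80 CPM in control (-0.56, SE 0.14, edgeR adjusted p = 0.176). Control T8 and T70 held more Eomes than control T4, and the summed hippocampal field genes were at 554, 655 and 594 CPM in control and at 636, 1148 and 774 CPM in cKO, highest in T6. The dentate gyrus of the hippocampal formation keeps Eomes and Prox1 cells after birth. Prox1, the transcription factor of dentate granule neurons, was at 33.2, 48.0 and 45.5 against 55.7, 115 and 76.4 CPM (0.96, SE 0.28, edgeR adjusted p = 0.257). The part of dissected hippocampal tissue in the progenitor values was not tested. Without T6 the median of the progenitor list was 0.33, with 7 members higher and 2 lower at an unadjusted p under 0.05. Of 17 radial glia and neural stem genes 11 were above 0 (median 0.07, and -0.13 without T6). In that list 4 were higher and 2 lower without overlap, and DESeq2 called 2 higher and 2 lower. Over all genes tested 50.9% were above 0, 11.3% were higher and 11.3% lower without overlap, and DESeq2 called 1.13% each way. Among radial glia genes, Pax6 was at 12.7 to 14.4 CPM in cKO against 10.03 to 10.7 CPM in control (0.40, SE 0.09, edgeR adjusted p = 0.167). Dlx1, a transcription factor of the interneuron lineage, was at 48.7, 44.4 and 41.6 against 31.8, 32.9 and 32.7 CPM (0.47, SE 0.08, edgeR adjusted p = 0.0827). Genes of replication and mitosis were above 0 in 18 of 19 members (median 0.20, and 0.09 without control T4), but 3 were higher without overlap, against 11.3% over all genes. In edgeR 0 passed and in DESeq2 0, and 3 were higher at an unadjusted p under 0.05, against 7.65% over all genes. By its median (-0.02) the pan-neuronal list was close to 0. Even so, 4 of its 15 genes fell below control without overlap and 0 rose above it, against 11.3% each way over all genes. Only 1 of the 15 was lower at an unadjusted p under 0.05, and edgeR and DESeq2 called 0.

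Besides Spp1, genes of phagocytes lay higher in cKO. Of 18 genes of activated microglia and phagocytes 14 were above 0 (median 0.30) and 9 were higher and 0 lower without overlap, and all 12 complement genes were above 0 (median 0.44) with 6 higher without overlap. The share over all genes was 11.3% higher without overlap. Msr1, a scavenger receptor of macrophages, was at 0.735, 0.597 and 0.546 CPM in control and at 2.01, 1.66 and 2.47 CPM in cKO (1.70, SE 0.22, edgeR adjusted p = 0.0568). C3ar1, the receptor of the complement fragment C3a, was at 2.94, 2.60 and 2.697 against 8.35, 5.15 and 5.87 CPM (1.23, SE 0.19, edgeR adjusted p = 0.0756). Both had every cKO library above control, and both passed in DESeq2. The C1q chains, which start the classical complement pathway and are made by microglia, moved alike in value, with C1qb at 14.9 to 20.4 CPM in cKO against 8.84 to 11.4 CPM (0.75, SE 0.14, edgeR adjusted p = 0.124) and C1qc at 18.3 to 22.8 against 12.8 to 15.3 CPM (0.55, SE 0.11, edgeR adjusted p = 0.137). Gpnmb, a membrane glycoprotein of lipid-laden phagocytes, was at 1.20, 1.20 and 1.48 CPM in control and at 35.2, 2.31 and 9.27 CPM in cKO (3.59, SE 1.06, edgeR adjusted p = 0.272). The cKO libraries of Gpnmb spread widely, with T3 highest and T6 close to control.

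Homeostatic microglia genes did not lie to one side. Their sum was 240, 196 and 219 CPM in control and 250, 232 and 226 CPM in cKO, and of 15 members 3 were higher and 1 lower without overlap (median 0.08). Over all genes tested 50.9% were above 0, and 11.3% were higher and 11.3% lower without overlap. Cx3cr1, the fractalkine receptor of microglia, was at 34.8 to 36.2 CPM in cKO against 25.7 to 32.4 CPM (0.30, SE 0.09, edgeR adjusted p = 0.252). Siglech, a lectin of resting microglia, was at 3.38, 3.71 and 2.43 CPM in cKO against 5.40, 4.99 and 4.69 CPM (-0.67, SE 0.17, edgeR adjusted p = 0.198). In the group of border macrophages and other leukocytes, 8 of 9 members were above 0 (median 0.35, and 0.65 without T3), where 50.9% of all genes were. Only 1 of the 9 was higher without overlap, close to the 11.3% over all genes. The sum of this group was 60.2, 37.7 and 49.1 CPM in control T4, T8 and T70 and 31.2, 82.3 and 75.1 CPM in cKO T3, T6 and T80. Of 16 genes of reactive astrocytes 12 were above 0 (median 0.30, and 0.15 without T6), with 6 higher and 1 lower without overlap. Steap4, a metalloreductase induced in reactive astrocytes, was at 0.343, 0.846 and 0.786 CPM in cKO against 0.112 to 0.282 CPM in control (1.91, SE 0.46, edgeR adjusted p = 0.176). Its control values were near the limit of detection, and every library was below 1 CPM. Meningeal fibroblast genes, another possible source of such transcripts, summed to 1227, 979 and 1145 CPM in control T4, T8 and T70 and to 242, 1334 and 1556 CPM in cKO T3, T6 and T80. T6 and T80 lay above the controls in both the meningeal and the border macrophage sums, and T3 below them. The part of meningeal tissue in the phagocyte values was not tested.

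None of the other ErbB receptors passed in edgeR or DESeq2. Per exon length Erbb4, a neuregulin receptor of neurons, was the most abundant at 24.4 TPM in control and 25.1 TPM in cKO, above Egfr at 12.3 ± 0.966 TPM (SD, n = 3) in control and 2.85 ± 1.17 TPM in cKO. Erbb2, which has no ligand of its own, was at 4.34 and 3.96 TPM, and Erbb3, the neuregulin receptor of glia, at 0.666 and 0.952 TPM. Of the ligands, HB-EGF (Hbegf) was at 18.7, 19.4 and 20.3 CPM in control and at 15.6, 15.1 and 15.3 CPM in cKO (-0.34, SE 0.08, edgeR adjusted p = 0.159, DESeq2 adjusted p = 0.0150). Its groups did not overlap. Betacellulin (Btc) was near the limit of detection, at 0.184 to 0.319 CPM in control and 0.0604 to 0.112 CPM in cKO. The ligand genes Areg, Ereg and Epgn were below the filter on low counts. Dusp6, a phosphatase induced by ERK that dampens it, was at 40.9, 45.2 and 42.8 CPM in control and at 55.0, 58.0 and 50.5 CPM in cKO (0.34, SE 0.08, edgeR adjusted p = 0.159, DESeq2 adjusted p = 0.0251). In the list of ERK feedback and ETS genes 13 of 15 members were above 0, where 50.9% of all genes were (median 0.16, and 0.01 without T6). Of these 0 passed in edgeR, with 3 higher and 1 lower at an unadjusted p under 0.05 (7.65% and 6.86% of all genes), and Dusp6 was the 1 called by DESeq2.

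Some of the called genes belong to none of these groups. Wdfy1, an endosomal adaptor protein with a FYVE domain (chr1:79679979-79753860, minus strand), was at 84.1, 83.4 and 82.7 CPM in control and at 52.1, 48.4 and 51.3 CPM in cKO. Its libraries were the tightest of the called genes within control, and it fell by 0.72 (SE 0.06, edgeR adjusted p = 0.0125). Gbp11, of a cluster of interferon-induced GTPases with near-identical copies (chr5:105470908-105494338, minus strand), was at 1.37, 1.07 and 1.19 CPM in control and at 0.343, 0.302 and 0.239 CPM in cKO (-2.06, SE 0.24, edgeR adjusted p = 0.0316). Its neighbour Gbp6, named here after its values were seen, did not follow, at 1.81, 2.13 and 2.06 against 0.732, 2.61 and 3.82 CPM. Reads shared between such copies may have been divided, so Gbp11 is uncertain. Rn7s1, a gene of the 7SL RNA of the signal recognition particle (chr12:69206069-69206368, plus strand), was at 12.8, 14.3 and 13.1 CPM in control and at 2.01, 1.06 and 1.67 CPM in cKO (-3.10, SE 0.21, edgeR adjusted p = 0.00699). Rn7s2 on the same chromosome (chr12:69407956-69408255, minus strand) fell by 3.23 (SE 0.38, edgeR adjusted p = 0.0348) and is a near-identical copy, so the pair is no independent evidence. Another small RNA went the opposite way: a 7SK copy (chr9:78082585-78082915, minus strand) was at 4.63, 4.41 and 4.495 CPM in control and at 21.8, 10.6 and 12.2 CPM in cKO (1.71, SE 0.26, edgeR adjusted p = 0.0780). Rn18s-rs5, a ribosomal RNA gene, was at 2304, 2468 and 2278 against 8526, 2780 and 4941 CPM, with every cKO library above control. The part of RNA capture in these RNA values, or in the values of the other genes and lists, was not tested.

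Growth hormone transcripts (Gh, chr11:106191097-106192691, minus strand) separated the genotypes at a low level. The 3 control caudal libraries held 0 counts of Gh, and cKO T3, T6 and T80 held 17, 15 and 17 counts. Over the group, with the 3 counts that a count of 0 allows, Gh was at least 18.7-fold higher in cKO (edgeR adjusted p = 0.0756, not passing). The rostral libraries of the same animals repeated this, with 0 counts in each control and 11, 17 and 22 counts in cKO T3, T6 and T80. Growth hormone is a pituitary hormone, and a growth hormone gene segment is part of some recombinase transgenes. Prl, the pituitary hormone prolactin, had 7 counts in the 6 caudal libraries together. Pomc, a hormone precursor made in pituitary and in some neurons, had 44, 37 and 41 counts in control T4, T8 and T70 and 15, 34 and 33 counts in cKO T3, T6 and T80, and did not separate the genotypes in the direction of Gh. Prl and Pomc were added after values had been seen. Whether the Gh counts come from the transgene was not tested, and the sources used here do not name the driver line.

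**Figure D4:**
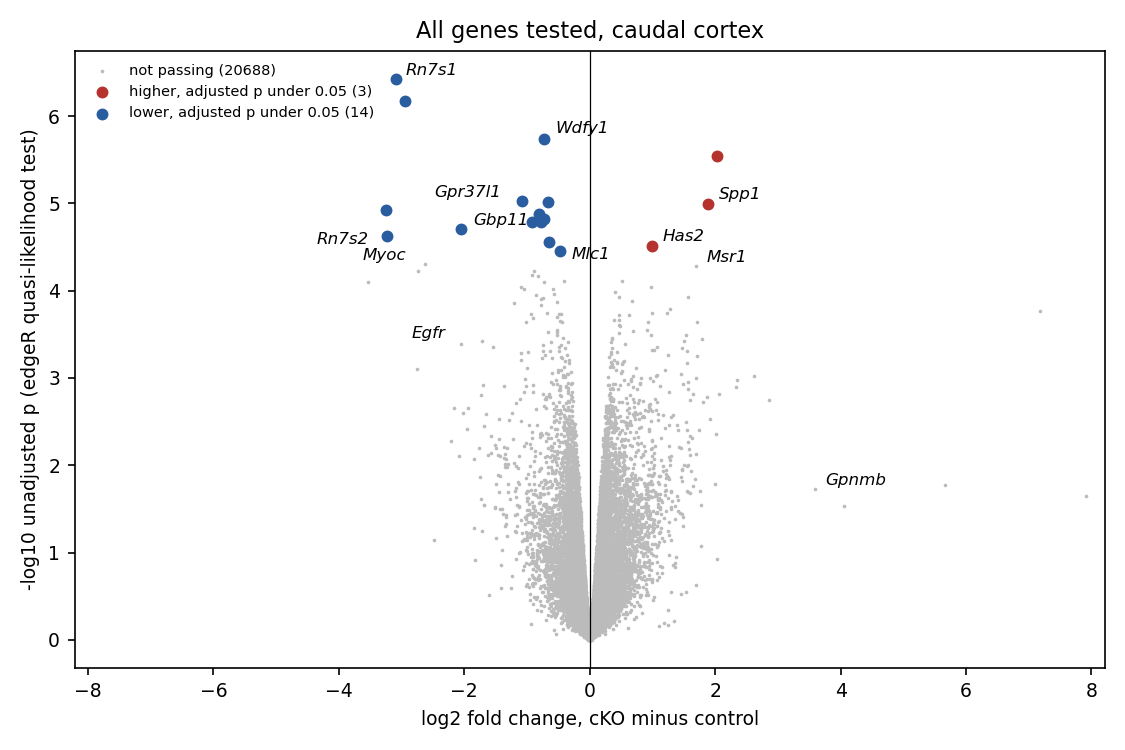
log2 fold change (cKO minus control) against -log10 of the unadjusted p of edgeR's quasi-likelihood test for the 20705 genes tested in caudal cortex, with genes past an adjusted p of 0.05 in blue (14 lower) and red (3 higher). Egfr and Myoc lie far to the left and Gpnmb far to the right without passing.

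Further genes with large differences lay just outside the threshold. Myoc, which encodes myocilin, was at 4.94, 4.57 and 4.37 CPM in control and at 0.389, 0.604 and 1.19 CPM in cKO, a wide gap (-2.62, SE 0.33, edgeR adjusted p = 0.0568). Zeb2, a transcription factor of neurons and glia, was at 413, 393 and 396 CPM in cKO against 257, 283 and 297 CPM in control (0.52, SE 0.07, edgeR adjusted p = 0.0606). Dio2, the astrocyte enzyme that activates thyroid hormone, was higher in each cKO library, at 74.4, 73.2 and 71.4 against 50.3, 51.3 and 56.8 CPM (0.47, SE 0.07, edgeR adjusted p = 0.0673). It went against the direction of most astrocyte genes above.

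The rostral pieces of the same animals were set beside the caudal values to see whether a difference was larger in one region. The interaction of genotype and region called 0 of 21599 genes in edgeR, with 767 (3.55%) at an unadjusted p under 0.05, 0 with the animal as a replicate block, and 14 in DESeq2. Without animal T6, 475 genes passed in edgeR, and without T3, 1 gene passed. The region genes of T3 and of T80 did not match their labels well. Fgfbp3 was at -1.39 in rostral and -0.78 in caudal cortex, Apln at -1.50 and -0.72 and Olig1 at -1.13 and -0.67, each with an adjusted p of 0.9997 for the interaction in edgeR. Bcan was at -1.06 in rostral cortex, Gpr37l1 at -1.65, Spp1 at 2.71 and Has2 at 0.89, in the same direction as in caudal cortex. Gbp11 was at -0.16 in rostral against -2.06 in caudal cortex (edgeR adjusted p = 0.9997 for the interaction). The rostral libraries come from the same 6 animals, so they are no independent test of the caudal result.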

How the data were processed

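Per the labels' protocols, mRNA was captured from 700 ng of total RNA per sample and KAPA mRNA HyperPrep libraries were sequenced as paired ends. Per the submitters' processing notes, STAR 2.7.8a, featureCounts 2.0.3 and build GRCm39 were used, and the sources used here do not state the annotation release, the strand setting or how shared reads were handled. The authors deposited expected counts per gene: in each library 9.69% to 14.3% of values had a fraction, so all were rounded to whole numbers, and the tests planned for counts were kept. Values of overlapping genes and near-identical copies are therefore uncertain.

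Groups and T numbers came from the titles, and a T number was taken as 1 animal. The 6 caudal libraries were fitted with edgeR 4.0.16 in R 4.3.3 (filterByExpr, TMM scaling, robust quasi-likelihood F test, Benjamini-Hochberg adjustment over all genes tested, threshold 0.05). An SE is the log2 fold change divided by the square root of F. CPM values carry the TMM scaling, and TPM used the exon lengths in the deposited tables. The interaction was fitted on all 12 libraries. Rostral and caudal deviations of an animal correlated across genes at 0.27 (T4), 0.247 (T8), 0.333 (T70), 0.0307 (T3), -0.00278 (T6) and 0.461 (T80). The test was tried on simulated data before use. Those data had the same variability setting for every gene and library, so they do not cover the unequal libraries seen here.

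The members and the 48 gene lists (621 genes, 594 tested, 25 below the filter and 2 without a match by symbol) were chosen with earlier results of these data known. Where a symbol occurred more than once, the identifier with most counts was used. Named genes were Egfr, every called gene, the next genes by p and by size with groups that did not overlap, and per list up to 8 members with the smallest p. Alternatives were DESeq2 1.42.0, limma 3.58.1 voom with library quality weights, other scalings and filters, a fit without robust estimation, all 12 libraries in 1 fit, sex as a covariate, each library left out in turn, and removal of mitochondrial genes and genes whose symbol starts with Rn7s. Some genes are not reported here.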

Additional observations from a re-analysis of the deposited data

How the results depend on the processing

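The number of genes called in caudal cortex was 17 with RLE or upper-quartile scaling, with a filter of 1 CPM in 3 libraries and without robust estimation. It was 15 without mitochondrial genes and genes whose symbol starts with Rn7s. That removal went by symbol and left in the short features on Rn7s1 and the 7SK copy. It was 468 in DESeq2 (234 higher and 234 lower), 373 in limma voom with library quality weights (183 higher and 190 lower) and 326 with no filter on low counts (143 higher and 183 lower), and each of these sets held the 17. It was 1 with all 12 libraries in 1 fit (Wdfy1) and 2 with sex as a covariate (Rn7s1 and a short feature on it). With single libraries left out it ran from 0 to 162. The cause of these differences was not tested. For the 62 features whose fold change is printed, the direction was the same under every alternative run. No paired analysis was possible because control and cKO animals share no T number. For the interaction, the replicate block with the animal as the block gave 0 genes (956 at an unadjusted p under 0.05), DESeq2 gave 14 (1 higher and 13 lower), and leaving out 1 animal gave 0 to 475, the highest without T6.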

Other observations

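Some lists, such as that of the choroid plexus, differed widely between single caudal libraries. Choroid plexus genes summed to 275, 76.5 and 306 CPM in control T4, T8 and T70 and to 304, 691 and 275 CPM in cKO T3, T6 and T80. Ttr, the thyroxine carrier of the choroid plexus, was at 1.70 CPM in control T8 and at 142 to 523 CPM in the other 5 libraries. Striatum genes summed to 606 CPM in control T4 and to 426 to 580 CPM in the others. Neuronal immediate early genes, which firing neurons induce, summed to 489 CPM in cKO T6 and to 209 to 235 CPM in the other 5 libraries, and 0 of 15 passed in edgeR, with 0 at an unadjusted p under 0.05 and 0 called in DESeq2. Erythroid genes summed to 556 to 767 CPM in cKO and to 748 to 982 CPM in control. The 13 mitochondrially encoded genes were all above 0 (median 0.54), 8 of them higher without overlap (11.3% of all genes), and without T6 the median was 0.24. Their sum was 20150, 19030 and 15700 CPM in control T4, T8 and T70 and 23360, 36280 and 20460 CPM in cKO T3, T6 and T80, every cKO library above control.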
